A study of Mus musculus with 6 samples.

Results

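Mineral is laid down in dentin and bone where phosphate is abundant and its inhibitor, inorganic pyrophosphate, is kept low. The genes described here are 8 that set this balance: *Alpl*, *Phospho1* and *Smpd3*, whose enzymes release phosphate or its precursors; *Enpp1* and *Ank*, which supply extracellular pyrophosphate; *Slc20a1* and *Slc20a2*, which carry phosphate into cells; and *Mgp*, whose protein holds back mineral in soft tissue. They were chosen by name, and all 8 were found among the 27506 genes of the count table. Their RNA was compared between mice with and without Cre-mediated deletion of *Ror2* in the dental mesenchyme, at the stage when the molar root begins to form. *Ror2* encodes a receptor tyrosine kinase for Wnt ligands.

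The RNA came from pulp of the first molar of the lower jaw at PN3.5 (3.5 days after birth), from mice of the C57BL/6 strain. There were 3 control libraries of genotype Ror2fl/fl and 3 mutant libraries of genotype Osr2-Cre;Ror2fl/fl, so by these labels every animal carried floxed *Ror2* alleles and Cre was named for the mutants only. The sample names also hold a code that the labels do not explain, WW in control library 1, OW in control libraries 2 and 3 and OR in the mutants. Sample indices 5, 6 and 7 occur in the controls and again in the mutants, and their meaning is not explained either. Whether both groups were collected and sequenced together is not given in the sources used here. A difference in collection or sequencing between them could not be told apart from genotype. According to the study, the *Osr2-Cre* transgene acts in the dental mesenchyme and alveolar bone and not in the dental epithelium. How many animals gave each library is not stated in the sources used here, so p-values measure the spread between these libraries, which may in part be technical. The libraries held 56134770 to 62628940 estimated counts. Expression is given in CPM, a gene's count scaled to a common library total with edgeR's TMM factors. A gene was called where edgeR's quasi-likelihood test gave a Benjamini-Hochberg adjusted p under 0.05 over all 19330 genes tested.

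*Ror2* itself was at 36.2 to 38.2 CPM in control and 26.3 to 28.1 CPM in mutant libraries, 26% lower (log2 fold change -0.43, standard error 0.08, adjusted p = 0.013 from edgeR). Without control library 2 or 3 the adjusted p of *Ror2* was 0.066 or 0.075. In the study's immunostaining, Ror2 could not be detected in the dental mesenchyme of these mutants but remained in the epithelium. Whole-gene counts of bulk tissue do not measure how far *Ror2* was deleted in the mesenchyme. The libraries labelled dental pulp held much RNA of genes known from enamel-forming epithelium. *Amelx*, which encodes the enamel protein amelogenin, had the most counts of any gene in every library, with 9.15% to 9.97% of all counts in control and 12.6% to 15.1% in mutant libraries, a difference that edgeR did not call (adjusted p = 0.085). The enamel genes *Enam* and *Ambn* did not share its direction. *Enam* was at 18314 to 21230 CPM in control and 9922 to 16604 CPM in mutant libraries (adjusted p = 0.16), and the log2 fold change of *Ambn* was -0.11 (adjusted p = 0.74, edgeR). In such bulk tissue, fewer cells of a type and less RNA per cell cannot be told apart.

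Of the 8 genes, *Slc20a1* and *Mgp* rose in mutant libraries and none of the other 6 was called. No member was called lower by edgeR as set out above, by DESeq2 or by limma-trend, and 1 had a lower level at an unadjusted p under 0.05 (*Phospho1*). With an offset for GC content, edgeR did call *Phospho1* lower (adjusted p = 0.047). The called share, 2 of 8 or 25%, stood beside 20.2% of all genes tested (10.4% higher, 9.84% lower), so the number called was near the background. The median log2 fold change was -0.04 over the 8 genes and 0.01 over all genes tested. Control and mutant libraries did not overlap for *Slc20a1*, *Mgp* and *Phospho1*, 3 of 8 (2 higher, 1 lower), where 44.7% of all genes did not overlap (22.6% higher, 22.1% lower). For 3 libraries per group the smallest two-sided p of an exact permutation test is 0.1.

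**Figure D1:**
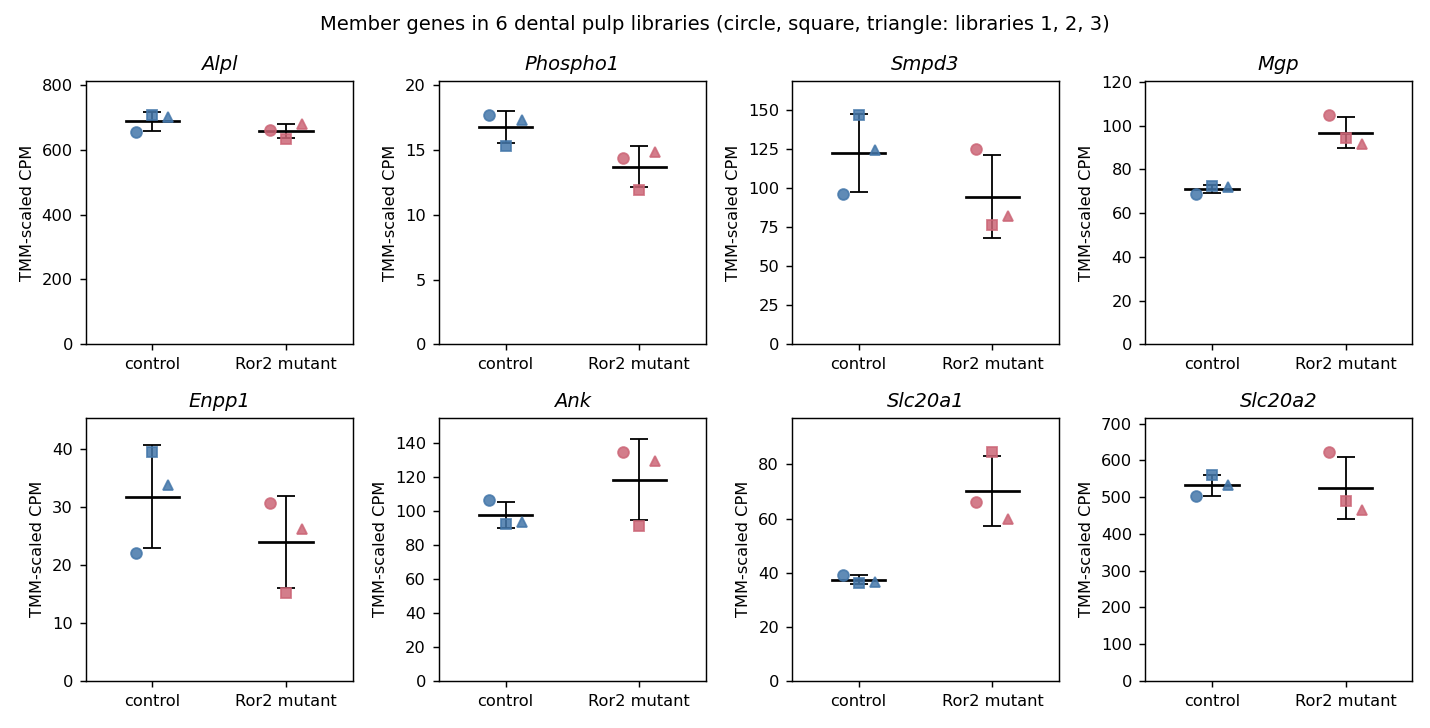
Expression of each of the 8 genes in TMM-scaled CPM (vertical axes, from 0) in the 3 control (blue) and 3 *Ror2* mutant (red) libraries; the horizontal line is the mean and the bar the SD. The mutant libraries lie above all controls for *Slc20a1* and *Mgp*, below all controls for *Phospho1*, and overlap them for the other genes.

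**Figure D2:**
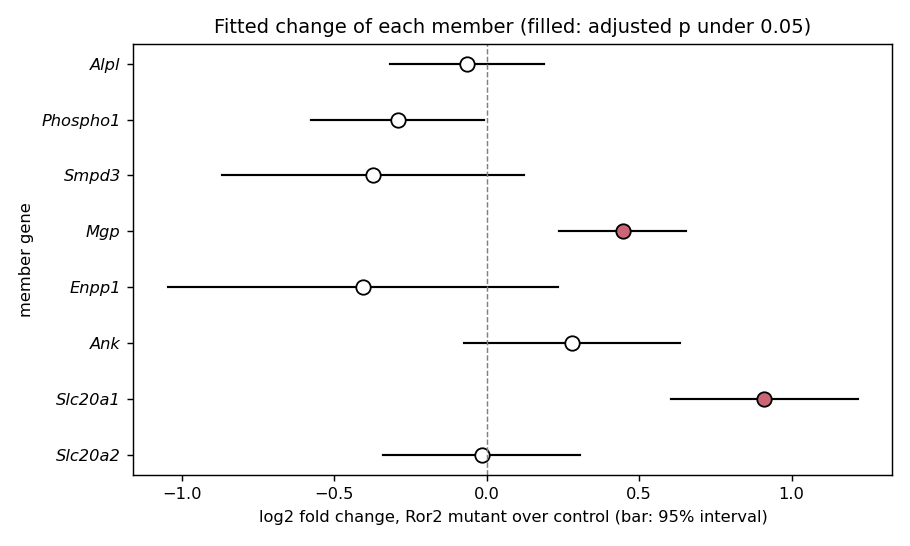
Log2 fold change of each gene in *Ror2* mutant over control libraries from edgeR's fit (horizontal axis), with its 95% interval; filled points have an adjusted p under 0.05. The intervals of *Slc20a1* and *Mgp* lie wholly above 0, and the widest belongs to *Enpp1*. That of *Phospho1*, which was not called, lies below 0 with its upper end at -0.01.

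Levels of different genes were compared per kilobase of exon in control libraries. *Alpl* was the most abundant at 171 ± 7.09 CPM per kb (mean ± SD, n = 3), followed by *Slc20a2* at 85.5 ± 4.74 and *Mgp* at 59.9 ± 1.68 CPM per kb. *Ank* at 27 ± 2.09 and *Smpd3* at 23.4 ± 4.81 CPM per kb were neighbours whose ranges overlapped. *Phospho1* at 8.27 ± 0.619, *Slc20a1* at 6.69 ± 0.298 and *Enpp1* at 3.1 ± 0.86 CPM per kb were lowest. Apart from *Ank* and *Smpd3*, the ranges of neighbours in this order did not overlap in control libraries. In mutant libraries *Slc20a1*, at 12.6 ± 2.3 CPM per kb, stood above *Phospho1* at 6.76 ± 0.775 CPM per kb, and the ranges of these 2 genes did not overlap there. *Mgp*, at 81.6 ± 5.9 CPM per kb, overlapped *Slc20a2* at 84.6 ± 13.6 CPM per kb, and *Slc20a1* overlapped *Smpd3* at 18.1 ± 5.09 CPM per kb. The level and place of *Phospho1* are uncertain in both groups, since most of its exon bases also lie in exons of other genes.

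The phosphate carriers are sodium-dependent cotransporters, PiT-1 encoded by *Slc20a1* and PiT-2 by *Slc20a2*. *Slc20a1* (ENSMUSG00000027397.14) lies on the plus strand of chromosome 2 of mm10, from 129198764 to 129211616. The bases ahead of its first start in RefSeq are shown because it is the member with the largest fold change. They are the 250 bases of chr2:129198523-129198772 on the plus strand of GRCm38.p6, from RefSeq, and capitals mark 2 GC boxes (GGGCGG) and a CCAAT box, searched on both strands.

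Slc20a1: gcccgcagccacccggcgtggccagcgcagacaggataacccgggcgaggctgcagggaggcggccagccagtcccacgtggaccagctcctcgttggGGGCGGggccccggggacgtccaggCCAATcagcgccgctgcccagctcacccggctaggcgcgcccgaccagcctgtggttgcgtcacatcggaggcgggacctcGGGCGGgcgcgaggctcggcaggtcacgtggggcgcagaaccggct

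GGGCGG occurs in 32.7% and CCAAT in 33.8% of all 32851 promoter windows of this length. TATAAA, the core of a TATA box, was not in this window. Windows were found for 5 of the 8 genes. RNA counts of a whole gene do not show which start was used.

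*Slc20a1* was at 39.3, 36.2 and 36.6 CPM in control libraries 1, 2 and 3 and at 66.3, 84.6 and 59.9 CPM in mutant libraries 1, 2 and 3. Every mutant library was above every control library, and mutant library 2 was the highest. The mean rose from 37.4 ± 1.66 to 70.2 ± 12.8 CPM (n = 3 each), 1.88-fold, and edgeR's log2 fold change was 0.91 (standard error 0.13, 95% interval 0.60 to 1.22, adjusted p = 0.0047 from edgeR). It was called in each of 19 alternatives, with log2 fold changes from 0.77 to 1.01. Between 2109 and 4880 estimated counts lay behind each value.

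Exons of *Slc20a1* overlap *9830144P21Rik* on the opposite strand over 8.1% of their bases, and *Gm4430*, also opposite, over 5.02%. Whether the counting used strand is not given in the sources used here. *9830144P21Rik* was higher in mutant libraries as well, 2.02 ± 0.926 against 0.804 ± 0.165 CPM (adjusted p = 0.034 from edgeR), at levels far below those of *Slc20a1*. Summed with both, *Slc20a1* was at 42.7 CPM in control and 76.8 CPM in mutant libraries, and the log2 fold change of the sum was 0.85 (adjusted p = 0.0054 from edgeR).

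*Slc20a2* (ENSMUSG00000037656.9; chromosome 8, 22476788 to 22569612, plus strand) was far more abundant, at 502, 561 and 533 CPM in the controls and 623, 488 and 466 CPM in mutant libraries. The mutant libraries lay on either side of the controls. Its log2 fold change was -0.02 (standard error 0.14, 95% interval -0.34 to 0.31, adjusted p = 0.94 from edgeR), and its sign turned in 5 of 19 alternatives, among them upper-quartile scaling. Within each library, the ratio of *Slc20a1* to *Slc20a2* needs no scaling between libraries. It was 0.0783, 0.0646 and 0.0688 in control and 0.107, 0.173 and 0.128 in mutant libraries, higher in every mutant library than in every control. On the log2 scale the ratio differed by 0.92 (exact permutation test, two-sided, p = 0.1, the smallest these groups allow; adjusted p = 0.28 over the 7 ratios compared).

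**Figure D3:**
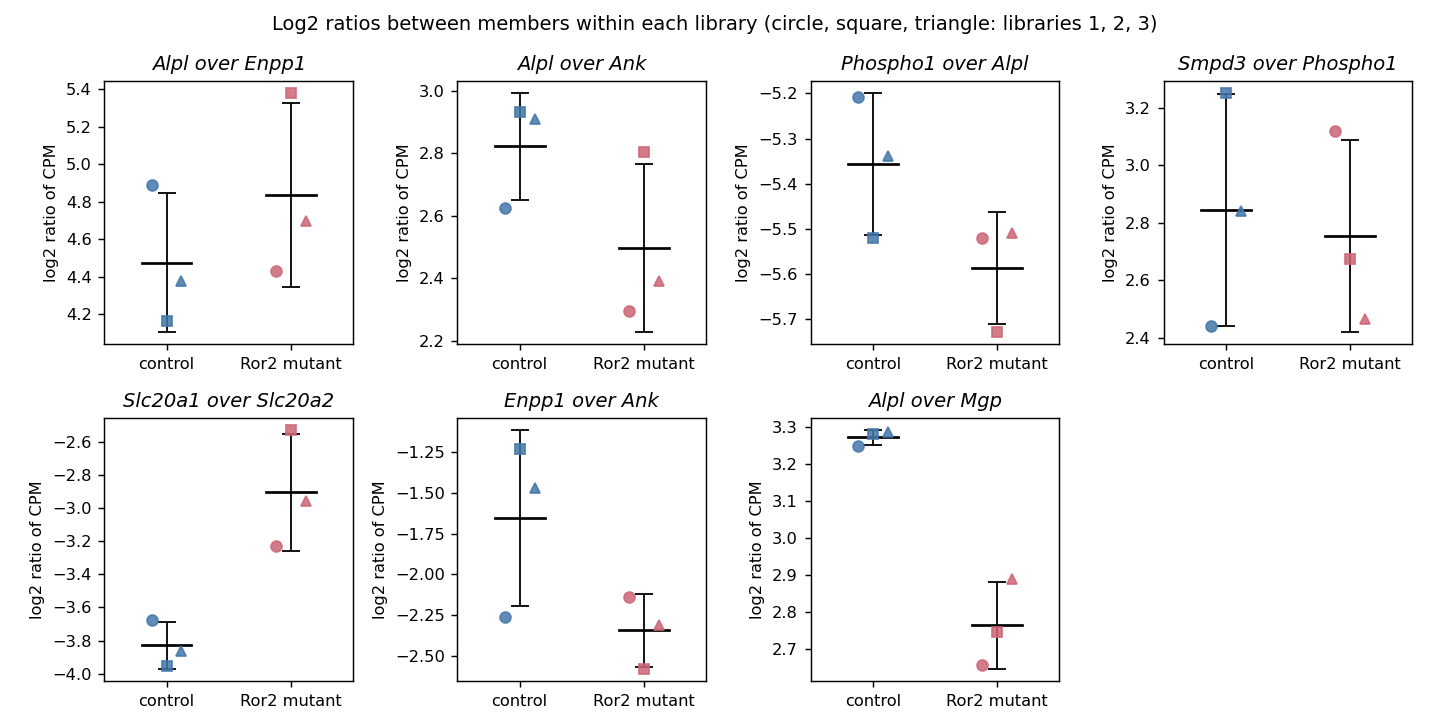
Log2 ratio of the CPM of 2 members within each library (vertical axes, which do not start at 0) for 7 pairs in control (blue) and *Ror2* mutant (red) libraries; lines and bars are mean and SD. The groups do not overlap for *Slc20a1* over *Slc20a2* and for *Alpl* over *Mgp*, and overlap for the other 5 ratios.

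*Mgp* encodes matrix Gla protein, an inhibitor of calcification made by cartilage and vascular smooth muscle among other tissues, which works after vitamin K-dependent carboxylation. It lies on the minus strand of chromosome 6 (ENSMUSG00000030218.2; 136872435 to 136875823). Its levels were 68.8, 72.6 and 71.9 CPM in the controls and 105, 94.4 and 91.5 CPM in mutant libraries. No mutant library overlapped the controls, which lay close together. The mean rose 1.36-fold, from 71.1 ± 1.99 to 96.9 ± 7 CPM, and edgeR's log2 fold change was 0.45 (standard error 0.09, 95% interval 0.24 to 0.65, adjusted p = 0.015 from edgeR). The adjusted p was 0.087 without control library 2 and 0.091 without control library 3, with log2 fold changes of 0.45 and 0.44. Over its 18 alternatives the log2 fold change ran from 0.39 to 0.48, and *Mgp* was called in 14.

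Markers of cartilage and vessel walls, tissues known for *Mgp*, are given beside it. Of 5 chondrocyte markers tested, *Col2a1*, *Acan*, *Col9a1* and *Col10a1* were lower in mutant libraries, and the list summed to 103 to 136 CPM in control and 100 to 111 CPM in mutant libraries, most of it *Sox9*. The 5 smooth muscle and pericyte markers summed to 226 to 285 CPM in control and 188 to 253 CPM in mutant libraries, and none was called by edgeR or limma-trend, while DESeq2 called 1 lower. At an unadjusted p under 0.05, 1 of these 5 was lower. Their log2 fold changes had both signs, from -0.58 for *Rgs5* to 0.31 for *Acta2*. The part of these cells in the level of *Mgp* was not tested.

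Among the genes of phosphate release, *Alpl* (ENSMUSG00000028766.10; chromosome 4, 137741733 to 137796384, minus strand) encodes tissue-nonspecific alkaline phosphatase, the enzyme that hydrolyses pyrophosphate. In teeth it is known from odontoblasts, the subodontoblastic layer and the stratum intermedium of the enamel organ. *Alpl* was at 655, 706 and 702 CPM in the controls and 661, 634 and 678 CPM in mutant libraries. These ranges overlapped, and the libraries of each group varied by 4.15% and 3.41% of their mean. The log2 fold change was -0.06 (standard error 0.11, 95% interval -0.32 to 0.19, adjusted p = 0.69 from edgeR). Over 18 alternatives it ran from -0.25 to -0.03 and *Alpl* was called in none. The lower end came with an offset for GC content (-0.24, adjusted p = 0.2) and with that offset beside the replicate block (-0.25, adjusted p = 0.34, both edgeR).

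Among the 3 genes whose log2 CPM followed *Alpl* most closely over the 6 libraries, of 9616 genes with a mean of at least 10 CPM, were *Cebpg* (Pearson r = 0.994, Spearman rho = 1) and *Sipa1l2* (r = 0.993, rho = 1). Without the 2 libraries farthest from the median of *Alpl*, r was 0.986 and 0.994. These are the highest of many values and are given as a description only.

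*Phospho1* encodes a phosphatase that frees phosphate from phosphocholine and phosphoethanolamine inside matrix vesicles. It was at 17.7, 15.4 and 17.3 CPM in the controls and 14.4, 11.9 and 14.9 CPM in mutant libraries. All mutant libraries were below all controls, but the decrease did not pass the threshold (log2 fold change -0.29, standard error 0.12, 95% interval -0.58 to -0.01, adjusted p = 0.12 from edgeR). Its exons have a GC content of 62.2%. When GC content was allowed for, its log2 fold change was -0.54 and it passed in edgeR (adjusted p = 0.047), the lowest of adjusted p-values that reached 0.36 across 19 alternatives. With the replicate block added the value was -0.56 (adjusted p = 0.06, edgeR).

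The position of *Phospho1* (ENSMUSG00000050860.6; chromosome 11, 95824499 to 95832140, plus strand) makes these counts uncertain. Of its exon bases, 89.6% also lie in exons of *Zfp652* on the same strand and 84.2% in exons of *Abi3* on the opposite strand. *Zfp652* was far more abundant, at 113 ± 3.76 CPM in control and 101 ± 15.8 CPM in mutant libraries. The sum of the 3 genes was at 133 CPM in control and 119 CPM in mutant libraries (log2 fold change -0.16, adjusted p = 0.36 from edgeR), and being mostly *Zfp652* it cannot show whether *Phospho1* changed.

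*Smpd3* (ENSMUSG00000031906.9; chromosome 8, 106252548 to 106337988, minus strand) encodes neutral sphingomyelinase 2, which yields phosphocholine and whose loss is known to impair the mineralization of bone and dentin. Its values were 96.2, 146 and 124 CPM in the controls and 125, 76.1 and 82.3 CPM in mutant libraries. Mutant library 1 lay among the controls, and the groups overlapped. The log2 fold change of -0.37 (standard error 0.22, 95% interval -0.87 to 0.12) had an adjusted p of 0.24 in edgeR and was not called. It was -0.62 without mutant library 1 (adjusted p = 0.063, edgeR) and -0.23 without control library 2 or mutant library 2.

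Supply of extracellular pyrophosphate rests on *Enpp1*, whose ectoenzyme makes it from nucleotides, and *Ank*, a membrane protein needed for its export or that of its precursor ATP. *Enpp1* (ENSMUSG00000037370.13; chromosome 10, 24637914 to 24712159, minus strand) was at 22.1, 39.4 and 33.7 CPM in the controls and 30.6, 15.2 and 26.1 CPM in mutant libraries. It varied most of the 8 genes within each group, by 27.8% and 33.1% of the mean. Its log2 fold change of -0.41 (standard error 0.28, 95% interval -1.05 to 0.24) was not called (adjusted p = 0.31 from edgeR). It was -0.62 without control library 1 or mutant library 1, -0.23 without control library 2 and -0.15 without mutant library 2, and -0.23 with the GC offset.

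*Ank* (ENSMUSG00000022265.7; chromosome 15, 27466677 to 27594909, plus strand) was at 106, 92.5 and 93.6 CPM in the controls and 135, 90.8 and 129 CPM in mutant libraries. Mutant libraries 1 and 3 were above all controls, and mutant library 2 was below them. The log2 fold change of 0.28 (standard error 0.16, 95% interval -0.08 to 0.64) had an adjusted p of 0.22 in edgeR and was not called. Without mutant library 2 it was 0.45 and passed (adjusted p = 0.02 from edgeR).

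Ratios between these members were mostly within the spread of libraries. The log2 ratio of *Alpl* to *Enpp1* differed by 0.36 (exact permutation test, p = 0.4, adjusted p = 0.47 over 7 ratios; 0.088 without mutant library 2 and 0.57 without control library 1), and that of *Alpl* to *Ank* by -0.33 (exact permutation test, p = 0.2, adjusted p = 0.28). *Enpp1* to *Ank* differed by -0.69 and *Phospho1* to *Alpl* by -0.23 (exact permutation test, p = 0.2 for each, adjusted p = 0.28). *Smpd3* to *Phospho1* differed by -0.09 (exact permutation test, p = 0.8, adjusted p = 0.8), and its sign turned when control library 2 or mutant library 3 was left out (0.11 and 0.05). The CPM of *Alpl* was 9.51, 9.73 and 9.76 times that of *Mgp* in control libraries and 6.3, 6.72 and 7.42 times in mutant libraries. These groups did not overlap, and the log2 difference was -0.51 (exact permutation test, p = 0.1, the smallest possible, adjusted p = 0.28).

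The spread of *Smpd3* and *Enpp1* within groups ran alongside markers of odontoblasts, the cells that make dentin, and of other cell types. The 5 odontoblast markers, most of whose sum is *Col1a1* and *Dspp*, summed to 14456, 46185 and 32596 CPM in control libraries 1, 2 and 3 and to 35431, 12787 and 17712 CPM in mutant libraries 1, 2 and 3. Control libraries 2 and 3 and mutant library 1 had the highest sums, and these 3 libraries also had the highest levels of *Smpd3* and of *Enpp1*. Mutant library 2 was lowest in all of these measures. Control libraries 2 and 3 and mutant library 1 were also highest in the sums of osteoblast, dental mesenchyme, endothelial, macrophage and chondrocyte markers. The pattern was therefore not particular to odontoblast markers, and among these *Dmp1* did not follow it in controls (64.8, 61.1 and 61.2 CPM). Over control and mutant libraries together the levels of *Slc20a1* and *Mgp* did not follow the order of the odontoblast sums. Within the controls, *Mgp* had the same order as these sums (68.8, 72.6 and 71.9 CPM) and *Slc20a1* the reverse order (39.3, 36.2 and 36.6 CPM). Among mutant libraries, library 1 had the highest sum and the highest *Mgp*, and library 2 the lowest sum and the highest *Slc20a1*. These comparisons were chosen after the values were seen. None of the 5 odontoblast markers was called by edgeR, DESeq2 or limma-trend, and none had an unadjusted p under 0.05. The part of odontoblast content, or of other cells, in the values of these 4 members was not tested.

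**Figure D4:**
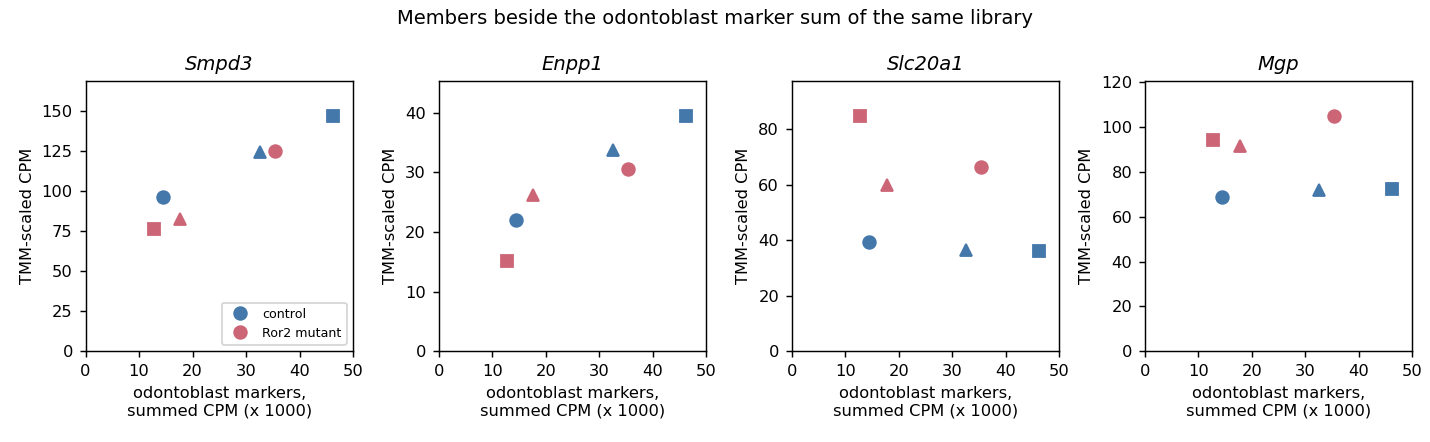
CPM of *Smpd3*, *Enpp1*, *Slc20a1* and *Mgp* (vertical axes, from 0) against the summed CPM of 5 odontoblast markers (horizontal axis) in each control (blue) and *Ror2* mutant (red) library. *Smpd3* and *Enpp1* are higher where the marker sum is high in either group. *Slc20a1* and *Mgp* lie above all controls in each mutant library, and within the controls *Mgp* rises and *Slc20a1* falls with the sum.

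Other marker lists also differed between the groups, and the single markers given by name here and above were chosen after their values were seen. The 7 dental epithelium markers summed to 171328 to 191690 CPM in control and 184941 to 255195 CPM in mutant libraries. None of the 7 was called by edgeR or limma-trend, while DESeq2 called 3 higher, and 3 were higher at an unadjusted p under 0.05. All 5 skeletal muscle markers were lower, with sums of 8.13 to 31 CPM in control and 1.91 to 2.17 CPM in mutant libraries. Of 4 dental follicle and periodontal markers, *Postn* and *Aspn* were lower, and the sums did not overlap (125 to 200 CPM in control, 105 to 115 CPM in mutant). In the osteoblast list *Spp1* was higher, with sums of 523 to 816 and 571 to 897 CPM. DESeq2 called 1 of these markers higher and 1 lower, and limma-trend none. The unadjusted p was under 0.05 for 1 higher and 1 lower. In the dental mesenchyme list *Msx2* was higher, with sums of 944 to 1232 and 907 to 1119 CPM. There DESeq2 called 1 higher and 2 lower, and limma-trend 1 higher. The unadjusted p was under 0.05 for 1 higher and 2 lower. Log2 fold changes were negative for *Runx2*, *Sp7*, *Ibsp*, *Msx1*, *Pax9*, *Lhx8* and *Vim* and positive for *Bglap* and *Lhx6*, none called by edgeR. Sums of the 4 endothelial markers (151 to 205 and 132 to 184 CPM) overlapped, as did those of 4 macrophage markers (54.8 to 70.8 and 47.1 to 62.5 CPM), with *Adgre1* lower. Those of 4 erythroid markers (769 to 1296 and 240 to 923 CPM, *Hba-a1* lower) overlapped too. Their part in the rise of *Slc20a1* and *Mgp* was not tested.

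Beyond the 8 genes, 66 genes of the same processes were listed by hand in 7 groups. Of these, 58 were tested and 11 were called, 4 higher and 7 lower, or 19%, beside 20.2% of all genes. Their median log2 fold change was -0.01. The number called moved with that of all genes when a library was left out. It was 1 without control library 2 (4.57% of all genes called), 2 without control library 3 (4.39%) and 20 without mutant library 3 (25.2%), and *Enpp3* alone of the 11 was called in each of these 6 fits.

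Phosphate transport held 3 called genes among 5 tested, and its median log2 fold change was 0.10. *Xpr1*, the known phosphate exporter of the cell, was at 283, 337 and 313 CPM in the controls and 175, 117 and 199 CPM in mutant libraries. All mutant libraries were lower (log2 fold change -0.93, standard error 0.19, adjusted p = 0.015 from edgeR). Without control library 2 or 3 its adjusted p was 0.068 or 0.064. *Slc34a2*, a sodium-phosphate cotransporter of epithelia, rose 2.8-fold from a low level, 0.873 ± 0.27 to 2.44 ± 0.196 CPM (adjusted p = 0.0094 from edgeR), on 39 to 152 estimated counts per library. Without control library 2 its adjusted p was 0.053. *Slc25a3*, the mitochondrial phosphate carrier, rose 1.3-fold from 213 ± 10.4 to 278 ± 2.59 CPM (adjusted p = 0.032 from edgeR), and in the fits that each left out a library it passed only without mutant library 2 or 3, with adjusted p-values up to 0.17 in the other 4.

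Among pyrophosphatases and the alkaline phosphatase family, 2 of 6 genes tested were called, and the list's median was 0.05. *Ppa1*, the cytosolic inorganic pyrophosphatase, fell from 40.4 ± 3.86 to 26.7 ± 4.81 CPM, and *Ppa2*, its mitochondrial counterpart, rose from 18 ± 1.89 to 25.2 ± 2 CPM (adjusted p = 0.025 from edgeR for each). The next smallest p belonged to *Lhpp* at 2.47 ± 0.19 and 2.17 ± 0.43 CPM (adjusted p = 0.54). Leaving out control library 2, control library 3 or mutant library 1 ended the call of *Ppa1* (adjusted p = 0.088, 0.068 and 0.073) and of *Ppa2* (0.12, 0.13 and 0.064), all from edgeR. For *Ppa1* control library 1 did so too (0.072).

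Of 13 genes of extracellular ATP and adenosine, 1 was called, and the median was -0.02. *Enpp3*, an ectoenzyme of the same family as *Enpp1* that splits nucleotides, fell from 6.42 ± 1.51 to 2.76 ± 0.18 CPM (log2 fold change -1.22, standard error 0.20, adjusted p = 0.0076 from edgeR) and was called in all 18 alternatives. *Entpd5*, a nucleoside diphosphatase of the endoplasmic reticulum, was at 18.4 ± 1.62 and 14 ± 2.23 CPM (adjusted p = 0.077), and without mutant library 3 it passed (0.029, edgeR). *Panx3*, a channel of osteoblasts and odontoblasts, was at 23.6 ± 2.7 and 18.4 ± 5.86 CPM (adjusted p = 0.27).

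Genes of matrix vesicle lipids and annexins had a median of -0.13, and edgeR called 2 of 12, both lower. DESeq2 called 3 higher and 2 lower, limma-trend 2 lower, and at an unadjusted p under 0.05 there were 4 higher and 3 lower. *Enpp6*, a choline-specific phosphodiesterase, fell from 71.6 ± 15.3 to 36.1 ± 10.8 CPM (adjusted p = 0.023 from edgeR), and *Anxa5*, a calcium-binding annexin found in matrix vesicles, fell from 264 ± 28.8 to 189 ± 15 CPM (adjusted p = 0.03 from edgeR). Each lost its call without control library 2 (adjusted p = 0.091 and 0.13) or control library 3 (0.087 and 0.12, edgeR). *Enpp6* also lost it without mutant library 2 (0.052), and *Anxa5* without mutant library 1 (0.056). *Gdpd3* stood at 0.302 ± 0.0616 and 0.829 ± 0.528 CPM (adjusted p = 0.061), and passed without mutant library 3 (0.047).

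Activation of Gla proteins such as that of *Mgp* needs *Ggcx*, the vitamin K-dependent carboxylase, and enzymes that recycle vitamin K. *Ggcx* fell from 42 ± 2.06 to 28.9 ± 5.15 CPM (log2 fold change -0.54, adjusted p = 0.028 from edgeR) and *Vkorc1l1*, a vitamin K epoxide reductase, from 69.8 ± 1.99 to 54.4 ± 6.54 CPM (adjusted p = 0.048). *Spp1*, whose product osteopontin binds mineral, rose from 14.9 ± 4.27 to 34.9 ± 17.6 CPM (adjusted p = 0.039). These were the 3 called of 9 tested, and the list's median was 0.16. Each of the 3 lost its call without control library 1, 2 or 3 or mutant library 1, with adjusted p-values of 0.054 to 0.11 for *Ggcx*, 0.078 to 0.17 for *Vkorc1l1* and 0.066 to 0.14 for *Spp1* (edgeR). *Vkorc1l1* also lost its call with the GC offset, where its log2 fold change went from -0.36 to -0.21 (adjusted p = 0.15, edgeR), without the filter on low counts (0.074, edgeR) and in limma-trend (0.053 and 0.052 with pseudocounts of 1 and 0.1). *Spp1* lost it in limma-trend with a pseudocount of 1 (0.052). Without mutant library 1 the log2 fold change of *Spp1* fell from 1.23 to 0.74.

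None of 3 zinc transporters that load alkaline phosphatase was called by edgeR or limma-trend, while DESeq2 called 1 lower, and 2 were lower at an unadjusted p under 0.05. *Slc30a7* was at 89.4 ± 1.55 and 68.2 ± 11.4 CPM (adjusted p = 0.062), *Slc30a6* at 15.2 ± 0.739 and 12.4 ± 1.07 CPM (adjusted p = 0.097) and *Slc30a5* at 56.6 ± 2 and 53.3 ± 4.43 CPM (adjusted p = 0.53, edgeR). Without mutant library 3, *Slc30a7* and *Slc30a6* passed (0.039 and 0.047). The list's median was -0.29.

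Of 10 phosphate-regulating hormones, receptors and enzymes tested, none was called by edgeR, DESeq2 or limma-trend, and none had an unadjusted p under 0.05. The median was -0.10. *Galnt3*, which protects the hormone FGF23 by glycosylation, was at 14.4, 13.9 and 13.6 CPM in the controls and 6.61, 5.56 and 13.7 CPM in mutant libraries. Mutant library 3 lay within the controls, and without it the log2 fold change moved from -0.69 (adjusted p = 0.13) to -1.20 (adjusted p = 0.0029, edgeR). *Fam20a*, a partner of the secretory kinase FAM20C, was at 252 ± 8.2 and 307 ± 53.3 CPM (adjusted p = 0.17), and *Fgfr1* at 703 ± 105 and 893 ± 177 CPM (adjusted p = 0.2, edgeR).

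**Figure D5:**
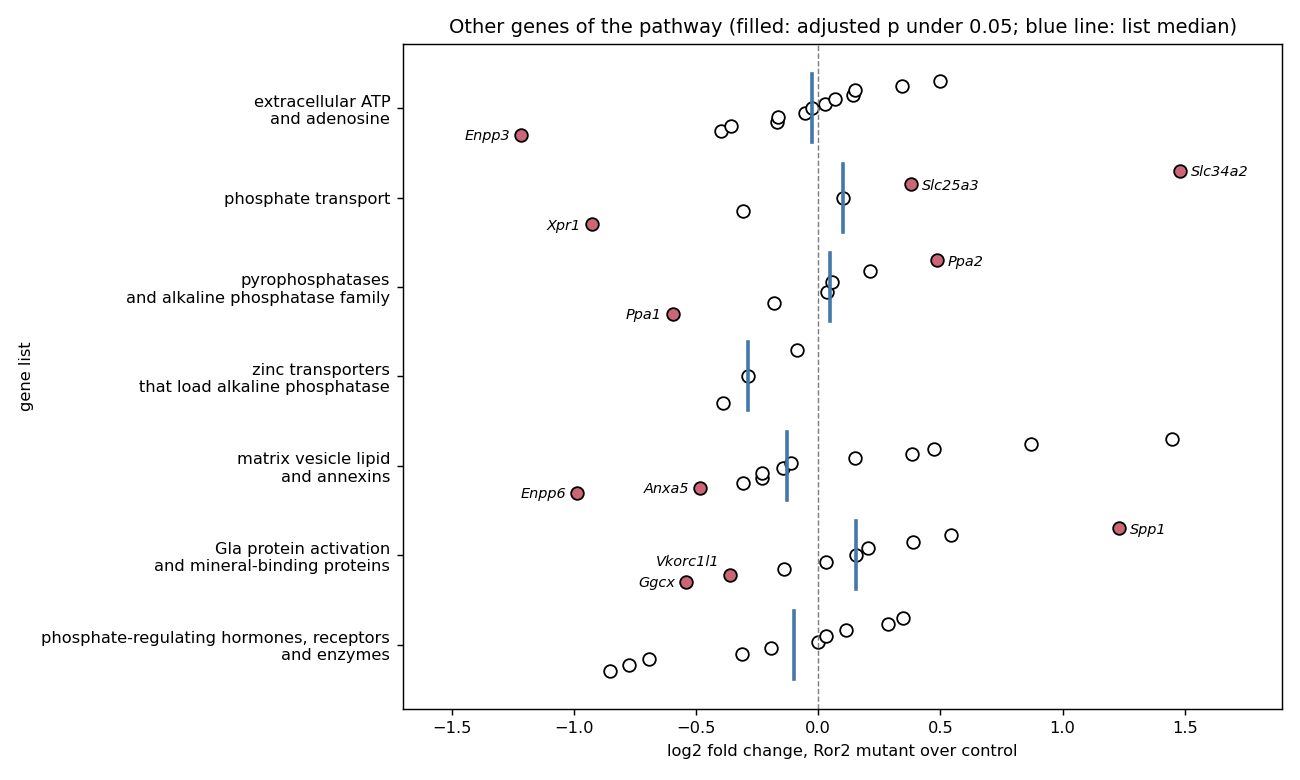
Log2 fold change in *Ror2* mutant over control libraries (horizontal axis) of the 58 tested genes of the 7 lists (rows); filled, named points have an adjusted p under 0.05 and the blue line is the list's median. The 11 called genes lie on either side of 0, 4 higher and 7 lower.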

How the data were processed

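The authors deposited estimated counts per gene; their methods give single-end reads of 75 cycles, TopHat 2, the mm10 genome and counting over exons, whereas the submitters' processing notes list STAR 2.6.1d and Partek. The program that divided reads between genes, its use of strand and the annotation are not given in the sources used here. The authors also deposited a normalized signal, which equals the estimated count plus 1 times 1 factor per library and is not divided by gene length. A further 6 columns of other samples were not used.

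Estimated counts were rounded, filtered with filterByExpr, TMM-scaled and tested with edgeR 4.0.16 (quasi-likelihood) in R 4.3.3; limma 3.58.1 and DESeq2 1.42.0 served as alternatives. The design had assumed counts that may be estimated. Standard errors are the log2 fold change divided by the square root of F. For ratios, 2 was the prior count added before taking log2 of CPM. The fits were also run on simulated data, in which all genes varied alike between libraries and libraries of a group did not differ in cell content. That run cannot show how the fits perform on the present libraries. Same-group libraries were not copies of each other (chi-square per gene of at least 61.7). Precision is set by 3 libraries per group and by the counts given beside each gene.

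Exon lengths, GC content and coordinates are from GENCODE M21 (mm10), which matched all 27506 genes. Genes sharing at least 20 stretches of 75 bases with a member, or its reverse complement, were summed with it as an alternative. Named genes were the members, *Ror2*, the 3 genes with the smallest p of each list, marker lists as sums, genes sharing sequence, and the 3 genes most like *Alpl*; some results of this rule are not reported here. Members and lists were chosen with earlier results of these data known. Alternatives were other tests, scalings, filters, pseudocounts (1 and 0.1), a GC offset, replicate number as a blocking term, and fits that each omitted 1 library.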

Additional observations from a re-analysis of the deposited data

How the results depend on the processing

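Over the alternatives run, *Slc20a1* kept its direction and its call, and *Alpl*, *Enpp1*, *Ank*, *Phospho1*, *Mgp* and *Smpd3* kept their direction. The log2 fold change of *Mgp* was 0.44 with the replicate block and 0.44 with the block and a GC offset (adjusted p = 0.065 and 0.072 from edgeR), and 0.39 to 0.48 when a library was left out. *Ank* ran from 0.18 to 0.45 when a library was left out, and *Phospho1* was at -0.54 with the GC offset. *Slc20a2* was at 0.012 with upper-quartile scaling, at 0.0039 with the stricter filter and at -0.16 to 0.058 when a library was left out. *Slc30a5* was at 0.13 with the GC offset, with or without the block. The ratio of *Smpd3* to *Phospho1* ran from -0.29 to 0.11 when a library was left out.

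With the replicate block 2013 genes, 1 member and 6 listed genes were called, and with the block and GC offset 1318, 1 and 5. When a library was left out, 872 to 5001 genes, 1 to 3 members and 1 to 20 listed genes were called. The cause of these shifts was not tested. The study's methods speak of pairs of samples without saying which libraries were paired. The deviations of same-numbered libraries from their group means correlated at -0.18, -0.06 and 0.03. Those of differently numbered libraries correlated at -0.13 to 0.15. With 3 libraries per group these values cannot show whether the libraries were paired. Leaving 7 enamel genes out of scaling, an alternative chosen after seeing the data, gave 3920 genes called, and 3886 of these were among the 3906 called with them. Among the listed genes named, *Gdpd3* and *Slc34a2* rest on the fewest counts (16 to 83 and 39 to 152 per library), so counting error limits them most.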
